A study of Homo sapiens with 6 samples.

Results

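The genes described here encode mitochondrial ribosomal proteins. They were chosen by name, as every gene in the platform's annotation whose symbol is MRPL or MRPS with a number and an optional letter and which has a probe set assigned to it alone, with pseudogenes left out. This rule gave 75 of 33458 genes, 48 with a large subunit symbol (MRPL) and 27 with a small subunit symbol (MRPS), and used no measured difference. Each gene was represented by its brightest probe set, and MRPL23 was the only gene with more than 1. MRPL53 and MRPS6 were not counted, because their probe sets are shared with CCDC142 and SLC5A3.

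RNA was measured on 6 whole-transcript arrays of TPC-1, a long-established cell line derived from papillary thyroid cancer of a human donor. The si-SMAD3 group had 3 arrays from cells that received 25 pmol of an siRNA against SMAD3, and the si-Control group had 3 arrays from cells that received 25 pmol of a control siRNA. In both groups a lipid reagent carried the siRNA and RNA was taken 24 h later. The experiment was repeated at 3 separate times, so the replicates are repeats of 1 line, and p-values measure the spread between these repeats. SMAD3 is a transcription factor through which TGF-beta and activin receptors act on genes, and the comparison asks which transcripts differ when it is depleted.

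The mitochondrial ribosome translates the few proteins that mitochondrial DNA encodes, all of them subunits of the respiratory chain and ATP synthase. Its RNAs come from mitochondrial DNA, but all of its proteins are encoded in the nucleus, made in the cytosol and imported, so that both genomes must supply the particle together. The large subunit holds the peptidyl transferase centre and sits on the inner membrane, and the small subunit binds the mRNA and decodes it. Subunits are given here by symbol. In the human particle, MRPS18A and MRPS30 are known to sit in the large subunit in spite of their names.

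All values are log2 values as deposited, normalised by the authors, and every difference is si-SMAD3 minus si-Control on that scale. SMAD3 itself had 10.58, 10.03 and 10.27 in the si-SMAD3 arrays, against 14.20, 14.21 and 14.67 in the si-Control arrays. The difference was -4.06 (SE 0.22, 95% interval -4.57 to -3.56, limma adjusted p = 0.00044), and without both replicate 3 arrays the limma adjusted p was 0.0762. In the fit reported here it was the only gene of the 20590 tested that passed the threshold of 0.05 after adjustment, which is 0.00486% of them. With an intensity trend and robust variance 5 genes passed, and with each array centred on its median or upper quartile 3 passed, none of them a mitochondrial ribosomal protein gene. Pairs of arrays correlated between 0.986 and 0.992 across the genes tested, and both replicate 2 arrays stood apart on the first principal component (scores of 39.5 in si-SMAD3 and 23.6 in si-Control, against -28.1 to -6.2 in the other arrays). The thyroid factor PAX8 averaged 13.59 in si-SMAD3 and 13.67 in si-Control arrays, and the epithelial keratins KRT8 and KRT18 averaged 13.52 or more in both groups. Of the other epithelial markers, KRT19 averaged 5.07 over the 6 arrays, and EPCAM and CDH1 lay below the filter of 3.93 on the 6-array mean, which is the median of all probe sets. TG, TSHR, SLC5A5 and NKX2-1, which define differentiated thyroid cells, also lay below it. The immune and endothelial markers measured averaged at most 4.25 in either group. Of the fibroblast markers, COL1A1 averaged 8.63 in si-SMAD3 and 8.40 in si-Control arrays and COL1A2 averaged 6.69 in si-SMAD3 and 6.50 in si-Control arrays, while DCN and PDGFRB averaged at most 4.57.

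The promoters of these genes show motifs that some, but not all, of them share. RefSeq promoters on GRCh38.p14, each running from 250 bases before the start to 50 bases after it, were available for 67 of the 75 genes. MRPL2, MRPL10, MRPL13, MRPL15, MRPL21, MRPL23, MRPL35 and MRPS28 were not matched. Motifs of the 3 factor families best known at nuclear genes for mitochondrial proteins were searched on both strands, and the windows below are the 100 bases that end just before the start, 5′ to 3′ on the gene's strand, with matches in capitals. The first 4 hold the ETS motif CCGGAAG, bound by the GABP complex among others. MRPL22 and MRPS9 hold the NRF1 motif CGCANGCGC, MRPL36 holds the YY1 motif AANATGGCG, and MRPL39 is shown as a promoter with none of the 3.
MRPL33 (chr2:27771619-27771718, plus strand): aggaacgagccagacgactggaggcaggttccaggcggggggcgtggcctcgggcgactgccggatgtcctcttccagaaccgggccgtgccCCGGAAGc
MRPL40 (chr22:19432445-19432544, plus strand): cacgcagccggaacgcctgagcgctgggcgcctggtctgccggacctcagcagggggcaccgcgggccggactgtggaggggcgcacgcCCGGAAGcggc
MRPS21 (chr1:150293761-150293860, plus strand): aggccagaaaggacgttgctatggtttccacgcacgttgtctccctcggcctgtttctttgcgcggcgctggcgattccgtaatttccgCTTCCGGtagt
MRPS26 (chr20:3045952-3046051, plus strand): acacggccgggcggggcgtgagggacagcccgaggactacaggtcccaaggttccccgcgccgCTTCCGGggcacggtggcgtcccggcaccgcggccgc
MRPL22 (chr5:154940973-154941072, plus strand): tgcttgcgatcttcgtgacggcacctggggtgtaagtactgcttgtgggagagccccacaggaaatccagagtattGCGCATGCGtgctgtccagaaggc
MRPS9 (chr2:105037969-105038068, plus strand): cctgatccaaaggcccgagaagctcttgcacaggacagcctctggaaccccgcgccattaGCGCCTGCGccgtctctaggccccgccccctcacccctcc
MRPL36 (chr5:1799838-1799937, minus strand): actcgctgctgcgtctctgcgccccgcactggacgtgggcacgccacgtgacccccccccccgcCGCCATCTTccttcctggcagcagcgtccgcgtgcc
MRPL39 (chr21:25607482-25607581, minus strand): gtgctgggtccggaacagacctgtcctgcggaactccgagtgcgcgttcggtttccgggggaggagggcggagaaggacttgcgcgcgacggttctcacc

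The ETS motif was in the full 300-base windows of 28 of the 67 promoters (41.8%), against 14.2% of the 15843 protein-coding promoters of the same length. The YY1 motif was in 18 (26.9%, against 4.8%) and the NRF1 motif in 11 (16.4%, against 11.0%). At least 1 of the 3 was in 46 promoters (68.7%, against 25.9%). Among promoters of genes above the filter the shares were 18.1% for ETS, 6.5% for YY1 and 14.1% for NRF1, so that the NRF1 share of these genes was close to it. ETS matches lay mostly ahead of the start, with 18 promoters holding one within the last 100 bases before it. YY1 matches lay elsewhere, since 16 of the 20 fell at or after the start, each of these 16 on the gene's own strand.

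Motifs of other factors were rarer or near the background. The palindromic SMAD motif GTCTAGAC was in 0 of 67 promoters, against 0.2% of protein-coding promoters. It is so rare that 67 promoters are too few to compare its shares. The short SMAD motif CAGACA was in 6 (9.0%, against 14.5%). The cyclic AMP response element TGACGTCA was in 0 (against 2.6%), the E-box CACGTG in 6 (9.0%, against 8.9%) and TATAAA in 2 (3.0%, against 9.6%). The median GC content was 60.3% in these promoters and 62.7% in the protein-coding promoters. A match is a description of the letters in the window, and it was not set against binding. MRPL46 and MRPS11 face away from each other on chromosome 15, with starts 320 bases apart, and their differences were 0.07 and -0.00.

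**Figure D1:**
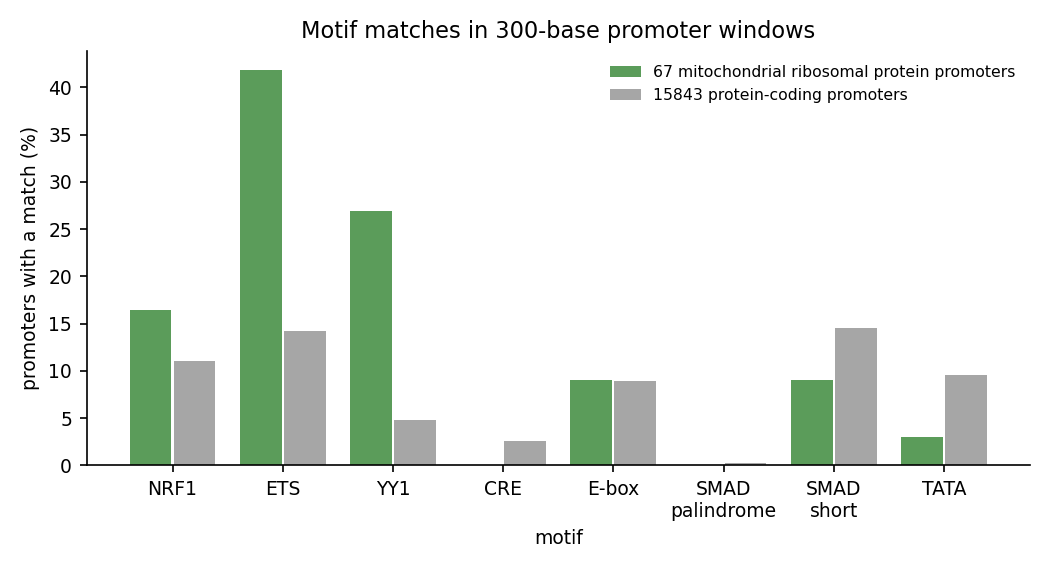
Share of 300-base promoter windows with at least 1 match (y axis, percent) for 8 motifs (x axis), in the 67 mitochondrial ribosomal protein promoters (green) and 15843 protein-coding promoters (grey). ETS (41.8% against 14.2%) and YY1 (26.9% against 4.8%) stand above the grey bars. The SMAD motifs do not, and the palindromic one is too rare (0.2% of protein-coding promoters) to compare.

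All 75 genes lay above the filter, and 73 had a 6-array mean at or above 5.35, the upper quartile of all probe sets. The exceptions were MRPL54, at 5.20, and MRPS12, a protein of the decoding centre, at 4.65. Probe set means ran from 4.65 to 15.03 with a median of 9.66, beside a median of 6.55 over all genes tested. Large subunit genes ran from 5.20 to 15.03 (median 9.23) and small subunit genes from 4.65 to 14.95 (median 9.89). Probe sets differ in how well they hybridise, so these ranges describe the signal and do not order the genes by abundance. None of the 75 genes had the same 6 values as another gene, as 93 of the tested genes did.

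No mitochondrial ribosomal protein gene passed the threshold. The smallest limma adjusted p was 0.787, for MRPS28. At an unadjusted p under 0.05, 2 genes were higher in si-SMAD3 (MRPL38 and MRPS28, 2.67% of the 75) and 1 was lower (MRPS26, 1.33%). Over all genes tested the shares were 2.71% higher and 3.03% lower, so the counts for these genes were near or under the background. Differences were positive for 41 genes and negative for 34, with a median of 0.02, which is also the median over all genes tested. The median was 0.02 in the large subunit (27 positive, 21 negative) and 0.02 in the small subunit (14 positive, 13 negative).

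The sizes were small as well. The median size of a difference, whatever its sign, was 0.13, beside 0.17 over all genes tested. Of the 75 differences, 57 (76%) were smaller than their limma standard error, beside 64.5% over all genes tested. That error also draws on the spread of the other genes tested. Only MRPS28 and MRPL40 differed by more than 0.5 (2.67%, beside 7.8%). In RNA from whole cultures, fewer cells holding a transcript and less of it per cell cannot be told apart.

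**Figure D2:**
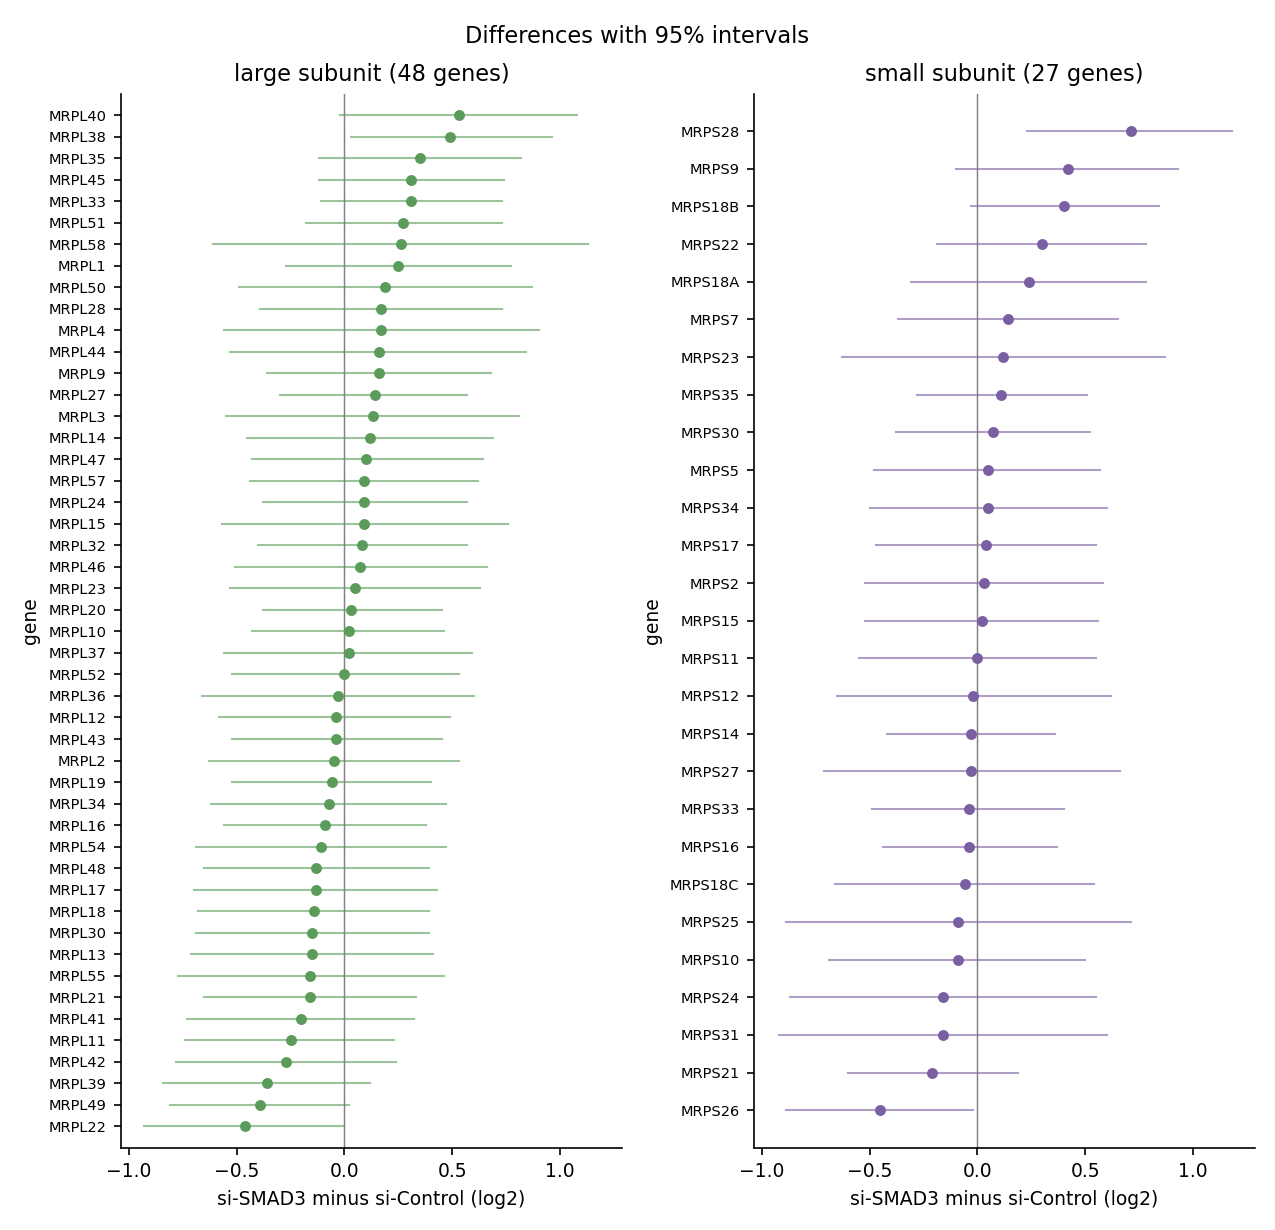
Difference between si-SMAD3 and si-Control in log2 units (x axis) for each of the 48 large and 27 small subunit genes (y axis, ordered by difference within each panel). Points are limma estimates and bars their 95% intervals, and the intervals of 3 genes, MRPL38, MRPS28 and MRPS26, lie wholly on 1 side of 0.

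MRPS28, the small subunit protein that stands in the place of bacterial S1, had the largest difference. Its values were 10.36, 10.33 and 10.04 in si-SMAD3, against 9.75, 9.23 and 9.63 in si-Control arrays. All si-SMAD3 arrays lay above all si-Control arrays, and the difference was 0.71 (SE 0.21, 95% interval 0.23 to 1.18, unadjusted p = 0.0082, limma adjusted p = 0.787). MRPL38, a protein of the central protuberance of the large subunit, had 6.75, 6.21 and 6.51 in si-SMAD3, against 6.04, 6.12 and 5.85 in si-Control arrays. Its groups were also apart, by only 0.09 between the nearest arrays, and the difference was 0.49 (SE 0.20, unadjusted p = 0.0393, limma adjusted p = 0.86). MRPS26, a small subunit protein found in mitochondria but not in bacteria, had 5.35, 5.19 and 5.37 in si-SMAD3, against 5.97, 5.79 and 5.52 in si-Control arrays. It lay lower in every si-SMAD3 array, with a difference of -0.45 (SE 0.19, unadjusted p = 0.0433, limma adjusted p = 0.86).

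The groups did not overlap for 4 genes that were higher in si-SMAD3 (5.33% of the 75, beside 5.75% of all genes tested) and for 5 that were lower (6.67%, beside 5.28%). Both counts changed when single arrays were left out. Without replicate 3 of si-Control 19 genes were higher, and without replicate 2 of si-Control 10 were lower. Leaving out any other single array gave 5 to 7 genes in each direction. Groups of fewer arrays overlap less often, and the share of all genes tested is not given for these settings. The counts without an array are therefore not read as a result about these genes. The higher genes were MRPS28, MRPL38, MRPL33 and MRPS18B. MRPL33, the counterpart of bacterial L33, had 8.25, 8.35 and 8.37 in si-SMAD3, against 7.79, 8.10 and 8.15 in si-Control arrays. MRPS18B, one of the proteins related to bacterial S18, had 12.08, 11.85 and 11.90 in si-SMAD3, against 11.45, 11.40 and 11.78 in si-Control arrays. The differences were 0.31 (SE 0.19) for MRPL33 and 0.40 (SE 0.19) for MRPS18B, and in both genes replicate 3 of si-Control came within 0.10 of the lowest si-SMAD3 array.

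The lower genes were MRPL22, MRPL39, MRPL49, MRPS21 and MRPS26. MRPL22, which lines the tunnel through which new peptides leave, had 7.34, 7.22 and 7.23 in si-SMAD3, against 7.40, 7.76 and 8.00 in si-Control arrays. MRPL39, which lies near the tunnel's exit, had 9.17, 8.95 and 9.12 in si-SMAD3, against 9.22, 9.29 and 9.80 in si-Control arrays. In these genes the si-SMAD3 arrays lay close together and replicate 1 of si-Control was nearly level with them, so the differences of -0.46 (SE 0.21) and -0.36 (SE 0.21) came mainly from the other si-Control arrays. MRPL49, a large subunit protein, had 7.76, 8.01 and 8.00 in si-SMAD3, against 8.43, 8.18 and 8.33 in si-Control arrays, with a difference of -0.39 (SE 0.18). MRPS21, the counterpart of bacterial S21, had 14.89, 14.87 and 14.78 in si-SMAD3, against 15.02, 14.97 and 15.17 in si-Control arrays. Its difference of -0.21 (SE 0.17) was smaller than that of MRPL40 or MRPS9, whose groups overlapped. None of these 9 genes had an adjusted p under 0.787.

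**Figure D3:**
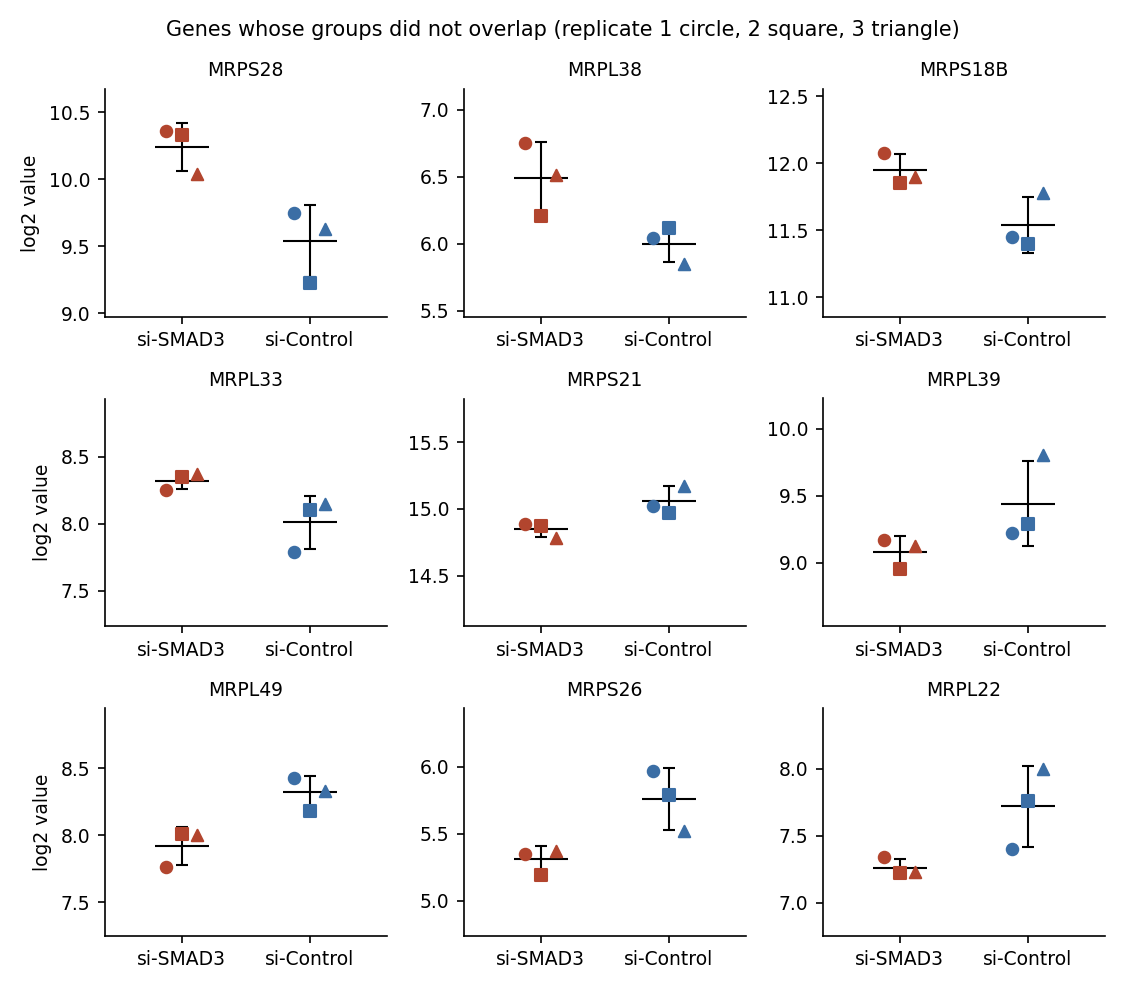
Log2 values (y axis, its own range for each gene) in si-SMAD3 (left, red) and si-Control (right, blue) arrays for the 9 genes whose groups did not overlap. Circles, squares and triangles are replicates 1, 2 and 3, long horizontal lines are means and bars are SDs (n = 3 each), and the gaps between groups are as small as 0.05 for MRPL39.

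Within the experiments, 8 genes were higher in si-SMAD3 each time (10.7% of the 75, beside 14.5% of all genes tested) and 7 were lower each time (9.33%, beside 13.4%). The 8 were MRPL33, MRPL35, MRPL38, MRPL40, MRPL45, MRPS18B, MRPS28 and MRPS35, and the 7 were MRPL11, MRPL22, MRPL39, MRPL42, MRPL49, MRPS21 and MRPS26. MRPL40, another protein of the central protuberance, had 10.76, 11.39 and 10.98 in si-SMAD3, against 10.26, 10.41 and 10.87 in si-Control arrays. Its difference was 0.53 (SE 0.24), made of 0.50, 0.98 and 0.11 in experiments 1, 2 and 3. MRPL45, which anchors the large subunit to the inner membrane, had 12.21, 12.29 and 12.13 in si-SMAD3, against 11.70, 12.13 and 11.87 in si-Control arrays, where replicate 2 reached the lowest si-SMAD3 array. MRPL35, the counterpart of bacterial L35, averaged 9.87 ± 0.26 in si-SMAD3 and 9.52 ± 0.17 in si-Control arrays (SD, n = 3 each). MRPS35 differed by 0.11, and its groups overlapped. MRPL11, at the base of the stalk, averaged 7.85 ± 0.11 in si-SMAD3 and 8.11 ± 0.32 in si-Control arrays, and MRPL42 averaged 12.52 ± 0.15 in si-SMAD3 and 12.79 ± 0.36 in si-Control arrays (SD, n = 3 each).

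By role, the differences are given beside those of all genes tested, of which 52.9% were positive with a median of 0.02. Of the 30 large subunit genes whose proteins have a bacterial counterpart, 16 differences were positive and 14 negative (median 0.02), and of the 18 without one, 11 were positive and 7 negative (median 0.04). In the small subunit, 9 of 17 genes whose proteins have a bacterial counterpart or relative were positive (median 0.02), as were 5 of 10 without one (median 0.01). The 7 central protuberance genes (MRPL18, MRPL27, MRPL38, MRPL40, MRPL46, MRPL48 and MRPL52) ran from -0.14 to 0.53 with 5 positive and a median of 0.07. The 8 genes of the peptide exit tunnel and its contact with the membrane ran from -0.46, for MRPL22, to 0.31, for MRPL45, with 5 positive and a median of 0.07. Of the stalk that recruits translation factors, MRPL10, MRPL11 and MRPL12 differed by 0.02, -0.25 and -0.04. The 12 genes of recessive respiratory chain disease, MRPS28 and MRPS22 among them, had 8 positive and 4 negative differences (median 0.08). The lists of the central protuberance, exit tunnel, stalk and disease are short, and whether they stand apart from all genes tested was not tested. No gene in any list by role passed the adjusted threshold.

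The 3 proteins related to bacterial S18 occupy different places in the particle, and their genes had different values. MRPS18A had 10.84, 11.61 and 11.22 in si-SMAD3, against 10.92, 10.79 and 11.26 in si-Control arrays, with overlap. MRPS18C had 8.88, 8.82 and 8.77 in si-SMAD3, against 8.28, 9.21 and 9.17 in si-Control arrays, and the si-SMAD3 arrays lay inside the range of the si-Control arrays. Their differences were 0.24 (SE 0.24) and -0.06 (SE 0.26), beside 0.40 for MRPS18B. Differences between these paralogs were not tested.

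Some genes varied more between repeats than between groups. MRPL58, a peptidyl-tRNA hydrolase that also serves as a rescue factor for stalled ribosomes, had the largest SD over the 6 arrays, at 0.59. It had 6.21, 7.49 and 7.29 in si-SMAD3, against 6.28, 6.54 and 7.39 in si-Control arrays, so that both replicate 1 arrays were low. MRPS25 (SD 0.51) had 9.49, 8.15 and 9.06 in si-SMAD3, against 9.06, 8.53 and 9.38 in si-Control arrays, with both replicate 2 arrays lowest. MRPS31 (SD 0.49) had 6.88, 6.68 and 6.66 in si-SMAD3, against 6.50, 6.44 and 7.76 in si-Control arrays, where replicate 3 stood alone. The same array was highest for MRPS23, MRPL4 and MRPL50, at 9.40, 8.02 and 9.04. Groups also overlapped for MRPS9, MRPS22, MRPS10 and MRPS24, with differences of 0.42, 0.30, -0.09 and -0.16. The 48 genes outside the rule by which genes were named had differences between -0.20 and 0.27 with standard errors between 0.17 and 0.30, and their groups overlapped in every case.

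The spread of these arrays was shared by most of the genes. In si-Control replicate 3, 68 of the 75 genes (90.7%) were higher than in si-Control replicate 2, by a median of 0.53, while 57.3% of all genes tested were higher, by a median of 0.08. This held in the large subunit (44 of 48 genes, median 0.60) and in the small subunit (24 of 27, median 0.47). Replicate 3 of si-Control was the highest of the 6 arrays for 44 genes (58.7%, beside 22.7% of all genes tested), and replicate 2 of si-Control was the lowest for 37 (49.3%, beside 20.4%). The median deviations from a gene's 6-array mean were 0.02, 0.06 and -0.04 in the si-SMAD3 arrays and -0.09, -0.25 and 0.30 in the si-Control arrays. Over all genes tested they stayed between -0.05 and 0.05. Nearly all members lie among the 13251 tested genes with a mean at or above 5.35. Of these, 61.9% were higher in si-Control replicate 3 than in replicate 2, by a median of 0.13. Replicate 3 of si-Control was the highest array for 26.6% of them, with a median deviation of 0.09. The members' median level of 9.66 is well above 5.35, so this set is not matched to them in level.

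MRPS27, a small subunit protein found in mitochondria but not in bacteria, shows the pattern in 1 gene. It had 10.54, 10.34 and 10.44 in si-SMAD3, against 10.54, 9.79 and 11.07 in si-Control arrays. The si-Control arrays thus spanned 1.28 around si-SMAD3 arrays that spanned 0.20, and the group means were nearly equal. MRPL36, the counterpart of bacterial L36 whose promoter is shown above, had 10.04, 10.22 and 9.77 in si-SMAD3, against 9.96, 9.55 and 10.60 in si-Control arrays. The 7 genes that were not higher in si-Control replicate 3 than in replicate 2 were MRPL10, MRPL38, MRPL45, MRPL55, MRPS14, MRPS18C and MRPS26. They include 2 of the 3 genes with an unadjusted p under 0.05, MRPL38 and MRPS26. MRPS14 was the most even of the 7, with 9.63, 9.76 and 9.69 in si-SMAD3, against 9.61, 9.80 and 9.76 in si-Control arrays.

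The si-SMAD3 arrays lay closer together. Between si-SMAD3 replicates 1 and 2, 36 of the 75 genes (48.0%) were higher in replicate 1, with a median difference of -0.01. The median SD within a group was 0.19 in si-SMAD3 and 0.35 in si-Control arrays, beside 0.24 and 0.26 over all genes tested. The SD was larger in si-Control for 56 of the 75 genes (74.7%, beside 53.4%). The cause of the shared spread of the si-Control arrays was not tested.

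**Figure D4:**
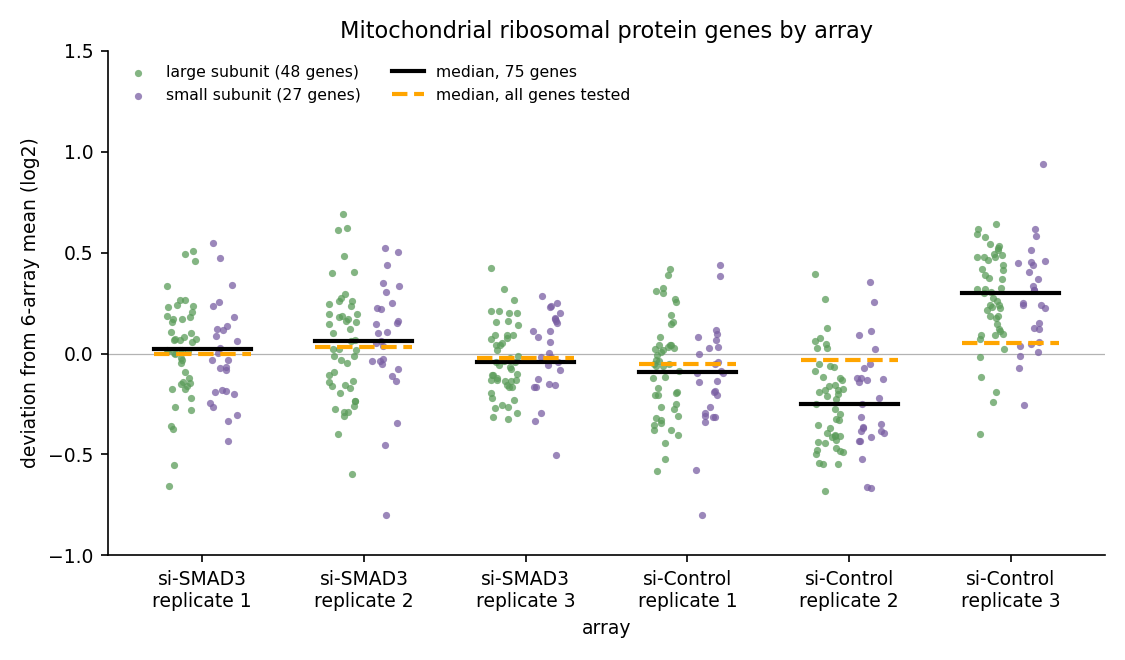
Deviation of each gene from its own 6-array mean in log2 units (y axis) in each array (x axis), with large subunit genes in green and small subunit genes in purple. Black lines are medians of the 75 genes and dashed orange lines medians of all genes tested, and the black line lies at 0.30 in si-Control replicate 3 and at -0.25 in si-Control replicate 2.

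The differences within the experiments did not share a sign. The median difference was 0.08 in experiment 1, 0.33 in experiment 2 and -0.32 in experiment 3, where all genes tested had 0.04, 0.07 and -0.08. Positive differences numbered 44 of 75 (58.7%) in experiment 1, 60 (80.0%) in experiment 2 and 12 (16.0%) in experiment 3. Over all genes tested the shares were 54.1%, 57.0% and 42.5%. Among tested genes with a mean at or above 5.35 they were 54.5%, 59.9% and 36.8%, with medians of 0.04, 0.10 and -0.13. The large subunit had medians of 0.10, 0.27 and -0.33, and the small subunit 0.06, 0.38 and -0.14. The sign of the genes' median difference depended on single si-Control arrays, since it became -0.09 when replicate 2 of si-Control was left out and 0.22 when replicate 3 was left out instead. The number of positive differences ran from 23 to 60 over the 9 settings that left out 1 array or 1 experiment.

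**Figure D5:**
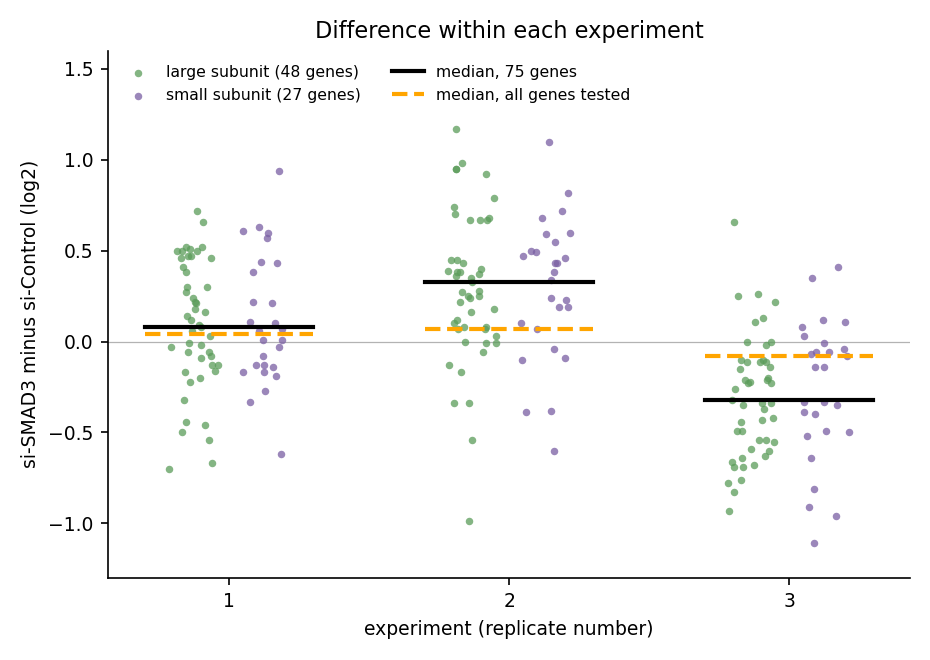
Difference between the si-SMAD3 and si-Control array of the same experiment in log2 units (y axis) for experiments 1, 2 and 3 (x axis), with large subunit genes in green and small subunit genes in purple. Black lines are medians of the 75 genes (0.08, 0.33 and -0.32) and dashed orange lines medians of all genes tested, and the black lines of experiments 2 and 3 lie on opposite sides of 0.

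Differences were also set beside the promoter motifs. The 28 genes with an ETS match and the 39 without one both had a median difference of 0.02. The 18 genes with a YY1 match had a median of 0.07, beside -0.00 in the 49 without, and the 11 with an NRF1 match had -0.03, beside 0.03 in the 56 without. Higher levels in si-Control replicate 3 than in replicate 2 were found with and without each motif, with medians of 0.43 and 0.64 for ETS, 0.55 and 0.53 for YY1 and 0.36 and 0.53 for NRF1.

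The probe sets add limits of their own. The second probe set of MRPL23, a protein at the exit of the tunnel, averaged 6.35 over the 6 arrays and had a difference of 0.40, while the one used averaged 7.06 and had a difference of 0.05. Of the pseudogenes of these genes, 73 had a probe set of their own, and 28 of them lay above the filter. Of the 28, the 3 with an unadjusted p under 0.05 were MRPS10P5 (difference 0.89), MRPL32P1 (0.64) and MRPL35P4 (-0.68). Their limma adjusted p-values were 0.76, 0.834 and 0.861. MRPL32P1 and MRPL35P4 averaged 4.08 and 3.94 over the 6 arrays, near the filter of 3.93. Over all genes tested, 2.71% were higher and 3.03% lower at an unadjusted p under 0.05. Whether the 3 pseudogenes exceed that share was not tested. The pseudogene probe sets MRPL45P2, MRPS10P1 and MRPS31P5 averaged 12.62, 10.93 and 7.18, and those of their parents MRPL45, MRPS10 and MRPS31 averaged 12.06, 10.29 and 6.82. MRPS31P5, like MRPS31, was highest in si-Control replicate 3, at 7.88, which was the highest array for 22.7% of all genes tested. The other pairs were less alike. MRPL45P2 was highest in si-Control replicate 1, at 12.97, where MRPL45 was lowest, at 11.70. MRPS10P1 had a difference of 0.38, beside -0.09 for MRPS10. A pseudogene and its parent can share probes in either direction, and whether these do was not tested.

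Genes that work with the mitochondrial ribosome were given the same test, and none passed the adjusted threshold. The list of mitochondrial ribosomal proteins under other symbols held 5 genes, and 4 differences were positive, with DAP3 at 0.17 and GADD45GIP1 at 0.18. The negative one, at -0.54, was that of KGD4, which was only once counted as a ribosomal protein. Of 12 mitochondrial translation factors 8 were positive (median 0.13), with the initiation factor MTIF3 at 0.43. The 27 assembly and rRNA modification factors were split between 13 positive and 14 negative (median -0.01). Among these, MRM3, which methylates the large rRNA, had 6.68, 6.68 and 6.99 in si-SMAD3, against 5.89, 5.52 and 6.35 in si-Control arrays. Its difference was 0.86 (unadjusted p = 0.006), and the GTPase MTG2 had a difference of -0.50 (unadjusted p = 0.0197).

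Of 12 genes of mitochondrial transcription and RNA processing 10 were positive (median 0.11), with PNPT1, an RNA-degrading enzyme, at -0.55 and TRMT10C, a subunit of mitochondrial RNase P, at 0.72. This list also was low in si-Control replicate 2 (median deviation -0.40) and high in si-Control replicate 3 (0.19), as were the assembly factors (-0.16 and 0.17) and the translation factors (-0.18 and 0.11). In the transcription and translation lists the highest median was that of si-SMAD3 replicate 3, at 0.25 and 0.13. Of 10 nuclear regulators 7 were positive, with the coactivator PPARGC1A at 0.51, CREB1 at -0.29 and GABPB1, a subunit of GABP, at -0.30. Their median deviations were -0.22 in si-Control replicate 2 and 0.02 in si-Control replicate 3. Among 8 mitochondrially encoded genes, 4 sat at 19.93, the highest value the table holds, on every array, so no difference could be seen in them. Since these 4 cannot vary, the list's median deviations in si-Control replicates 2 and 3, -0.01 and 0.00, say little about the others. The others, ND2, ND3, ND6 and COX2, had 14.05, 15.57, 15.09 and 19.86 in si-Control replicate 2. Each was higher in si-Control replicate 3, at 15.71, 15.86, 15.26 and 19.93. For ND6 that value still lay below all si-SMAD3 arrays (15.42, 15.30 and 15.27). Its groups did not overlap, which held in that direction for 5.75% of all genes tested. COX2 there reached the highest value the table holds, and it ranged over only 0.07 in the 6 arrays.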

How the data were processed

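Expression was measured on 6 arrays. The deposited log2 values came from RMA, which the authors ran in Affymetrix Expression Console according to the submitters' processing notes. RMA equalises the arrays (medians 3.94 to 3.96), so a shift in all transcripts cannot be seen. Their range is wide for RMA and stops at 19.93. Any later transformation, the versions and the annotation's build are unstated in the sources, so differences hold on this scale only.

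Of 138745 probe sets, 2995 were controls, 36176 had 1 symbol, 1119 had several and 101450 were not listed. Genes with a mean of 3.93 or more (20590 of 33458) were tested with limma 3.58.1 in R 4.3.3 (lmFit and eBayes, 2-sided, Benjamini-Hochberg adjustment over all 20590, threshold 0.05), without further terms. With 3 arrays against 3, an exact permutation test cannot go below 0.1, and the number of arrays limits the precision. No column of another series was used.

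The replicate numbers come from the sample titles, and the series' design text says that the repeats were done at separate times. Same-numbered arrays were therefore taken as pairs for the differences within experiments. The main limma fit did not use the pairing, so its errors and p-values ignore it. Their deviations from group means correlated at 0.15, 0.22 and 0.05, against -0.18 to 0.06 for different numbers. A fit that took the replicate number as a block was an alternative. The errors of some genes changed with it, such as that of MRPL58 (0.38 in the main fit and 0.26 with the block).

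The members, the gene lists and the motifs were chosen with earlier results of these data known. Named genes were those with an unadjusted p under 0.05, the 5 largest increases and decreases and the 3 largest SDs in each subunit, genes with more than 1 probe set, the MRPS18 genes, and the 3 smallest p-values of each related list. MRPS35, MRPS27, MRPS14, MRPL36, MRPL55, MRPL46, MRPS11, MRPL10, MRPL12, the genes shown as promoters, the lowest probe sets and the pseudogenes were named after their values were seen.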

Additional observations from a re-analysis of the deposited data

How the results depend on the processing

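None of the 75 genes was called with the settings used or in any of the 19 alternatives, where the smallest limma adjusted p was 0.635, and 3 had an unadjusted p under 0.05 with the settings used. In the fit that paired arrays by replicate number, as a block, 3 genes were higher at an unadjusted p under 0.05 (MRPL38, MRPL40 and MRPS28) and 0 were lower, and no call changed. Leaving out arrays moved the median difference between -0.14 and 0.22 (large subunit -0.17 to 0.20, small subunit -0.10 to 0.22), beside -0.02 to 0.06 for all genes tested. The genes higher at an unadjusted p under 0.05 then numbered 1 to 5, those lower 0 to 1, those higher without overlap 5 to 27 and those lower without overlap 5 to 21. Groups of fewer arrays overlap less often. The shares over all genes tested are not given for these settings or for the paired fit. Their counts are therefore not read as a result about these genes. Centring each array on the median of the genes tested gave a median of -0.01 with 37 positive differences, and centring on the upper quartile gave 0.04 with 42. All 27 sign changes of named genes came from settings without some arrays, and 16 of the 27 named genes kept their sign throughout. The ranges of the others were -0.32 to 0.29 for MRPL23, -0.22 to 0.72 for MRPL4, -0.05 to 0.56 for MRPL50, -0.09 to 0.65 for MRPL58, -0.30 to 0.11 for MRPS10, -0.06 to 0.43 for MRPS18A, -0.39 to 0.11 for MRPS18C, -0.29 to 0.58 for MRPS23, -0.54 to 0.22 for MRPS24, -0.39 to 0.28 for MRPS25 and -0.43 to 0.31 for MRPS31. Leaving out the genes at the highest value on all arrays was added after seeing the data. The difference of SMAD3 lay between -4.29 and -3.90 without single arrays or experiments, and its adjusted p rose to 0.0762 without replicate 3 and 0.547 without variance moderation.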
